A study of Mus musculus with 12 samples.

Results

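Ribosome biogenesis genes encode the factors that transcribe ribosomal RNA in the nucleolus, modify and cut it, and assemble it into the small and large ribosomal subunits. The set comprised 36 genes, given by name. A gene was read from the probe set that carried its symbol alone, and from the one with the highest mean over the tumours where there were several. This gave 35 measured genes of 36, out of 19937 genes on the array with such a probe set. No probe set carried the symbol Npm3 alone, so that this histone chaperone has no value here. Ddx18, Fbl and Wdr12 had several probe sets each. Probe set identifiers of the other genes run in blocks by chromosome. In all 3 genes the chosen identifier lies outside the block of the gene's own chromosome.

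The genes were measured in whole prostate tumours that developed in C57BL6 hosts after injection of the mouse prostate carcinoma line TRAMP-C2Re3. There were 12 tumours on 12 single-colour arrays. In 6 the host mouse was a p62 KO, lacking the autophagy receptor and signalling adaptor p62 (gene Sqstm1), and in 6 it was wild type (WT). Every host received 50000 cells into the prostate, and tumours were taken after 60 days. Only host cells lack p62, because the injected cells of both groups carry their own Sqstm1. A difference between the groups in a tumour cell gene is therefore a difference between hosts, read in bulk RNA, in which fewer cells of a type and less RNA per cell cannot be told apart. The age of the mice and the exons deleted are not given in the sources used here.

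Ribosomal RNA is made by RNA polymerase I with the initiation factors Rrn3 and Ubtf. Small nucleolar ribonucleoproteins (snoRNPs) then guide its chemical modification. The box C/D class methylates ribose through Fbl, and the box H/ACA class converts uridine to pseudouridine through Dkc1. Processing complexes trim the precursor into the RNAs of each subunit. The programme is driven by growth signals and by the transcription factor Myc, and nucleoli enlarge in many carcinomas.

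All levels are log2 intensities as deposited, so that a difference of 1 is a doubling. Sqstm1 ranged over 8.17, 8.76 and 9.22 (lowest, median and highest) in tumours of KO hosts and over 8.55, 8.91 and 9.16 in tumours of WT hosts. The exact two-sided permutation p of the Sqstm1 difference was 0.42. Array medians lay between 6.21 and 6.44 and lower quartiles between 4.85 and 5.36. The arrays of KO hosts 3 and 2 and WT hosts 5 and 2 had the narrowest spread, with interquartile ranges of 2.15, 2.26, 2.47 and 2.59, against 2.70 to 2.95 on the other 8. The mean over the 9969 genes at or above the median level was 7.77 in KO host 3 and 7.83 in KO host 2, against 8.09 to 8.15 in KO hosts 1, 4, 5 and 6. Since all 35 genes lay above the lower quartile of the table, results are given with and without these arrays. The epithelial marker Epcam lay below the lower quartiles at 4.61 ± 0.32 with a KO host and 4.59 ± 0.25 with a WT host (SD, n = 6 each), whereas the epithelial keratin Krt8 stood at 8.12 ± 0.35 with a KO host and 8.10 ± 0.20 with a WT host.

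Several of the genes carry a binding motif of Myc and related factors, the E-box CACGTG, near their start. Promoter windows of 300 bases, from 250 before to 50 after each annotated start, were matched by symbol in RefSeq (build GRCm38.p6) for 31 of the 36 genes. Of these 31, 7 held CACGTG (22.6%), against 8.09% of all 27025 genes in the table and 8.91% of its 17492 protein-coding genes. They were Mybbp1a, Nop2, Pes1, Rrn3, Tsr1, Utp20 and Wdr43. The motif CCGGAAG of ETS factors, or its reverse complement CTTCCGG, was in 10 of 31 (32.3%), against 9.93% of all genes and 12.9% of coding genes. Both motifs were searched on both strands, and their letters do not allow a match of one to overlap a match of the other. The windows of the set had a mean GC content of 59.5%, against 53.8% over all windows and 56.2% over those of coding genes. A match describes letters in a window and not a bound site. The 250 bases before the start of Rrn3, Nop2 and Ncl are shown with CACGTG in capitals. Rrn3 holds 2 E-boxes, Nop2 holds 1 and Ncl holds none. Ncl was picked by its values across tumours, and a link between motif and level was not tested. The windows of Rrn3 and Nop2 also hold the ETS motif, and that of Ncl does not. Rrn3 lies at chr16:13780449-13780698 on the plus strand, Nop2 at chr6:125131633-125131882 on the plus strand and Ncl at chr1:86359456-86359705 on the minus strand.
Rrn3: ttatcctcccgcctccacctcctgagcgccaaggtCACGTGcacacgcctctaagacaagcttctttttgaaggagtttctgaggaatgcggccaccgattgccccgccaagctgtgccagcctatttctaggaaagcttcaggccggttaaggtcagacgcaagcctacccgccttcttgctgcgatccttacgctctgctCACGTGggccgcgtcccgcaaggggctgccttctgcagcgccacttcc
Nop2: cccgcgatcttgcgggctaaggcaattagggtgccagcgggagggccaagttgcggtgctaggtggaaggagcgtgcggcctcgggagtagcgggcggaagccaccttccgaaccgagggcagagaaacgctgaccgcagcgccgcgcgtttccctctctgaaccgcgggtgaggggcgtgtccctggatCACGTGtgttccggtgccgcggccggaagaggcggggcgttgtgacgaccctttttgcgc
Ncl: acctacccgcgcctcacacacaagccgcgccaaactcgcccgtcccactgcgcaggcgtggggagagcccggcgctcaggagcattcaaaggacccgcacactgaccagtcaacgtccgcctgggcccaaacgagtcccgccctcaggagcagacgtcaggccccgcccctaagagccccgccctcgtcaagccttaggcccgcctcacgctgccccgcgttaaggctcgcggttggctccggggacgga
With the first transcribed base counted as 0, the motif begins at -215 and at -48 in Rrn3 and at -60 in Nop2. In the other 5 genes with an E-box it begins after the start, at 2 in Pes1, 17 in Wdr43, 24 in Tsr1, 37 in Utp20 and 40 in Mybbp1a.

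The first comparison asked whether tumours in p62 KO hosts differed from those in WT hosts in these genes. None of the 35 passed limma at an adjusted p under 0.05 (0 higher and 0 lower), against 0.00355% of all 28192 probe sets tested, which is 1 probe set. At an unadjusted p under 0.05 there were 0 of 35 as well, against 2.39% of all probe sets, and the smallest p among the 35 was 0.142 (limma, adjusted p = 0.994). The groups overlapped in every one of the 35, where they did not overlap in 0.145% of all probe sets. Differences, taken throughout as KO hosts minus WT hosts, ran from -0.24 (Nop56) to 0.14 (Gar1), with 9 genes above 0 and 26 below, against 42.8% of all probe sets below. Genes in the upper part of the scale leaned the same way, with 6116 of 9969 below 0. The median difference was -0.10 for the set, -0.04 for those 9969 genes and 0.02 over all probe sets.

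The count and the mean depended on which tumours entered. Without KO hosts 2 and 3, 21 of the 35 genes were above 0 and 14 below, and the mean difference was 0.04, against -0.09 over all 12 tumours. Over all probe sets 54.5% were then below 0, with a median of -0.02. Left out singly, KO host 2 brought the mean to -0.03, KO host 3 to -0.05 and WT host 3 to -0.04. Without KO hosts 2 and 3 and WT hosts 2 and 5, 13 were above and 22 below, with a mean of -0.02, against 52.1% of all probe sets below. In these settings without 2 and without 4 tumours, 0 of 35 passed (smallest unadjusted p 0.0824 and 0.170). The 95% intervals of the single genes reached from -0.74 at the lowest bound (Rrn3) to 0.44 at the highest (Nop16). They differed in width between genes, and that of Ncl ran from -0.22 to 0.11.

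**Figure D1:**
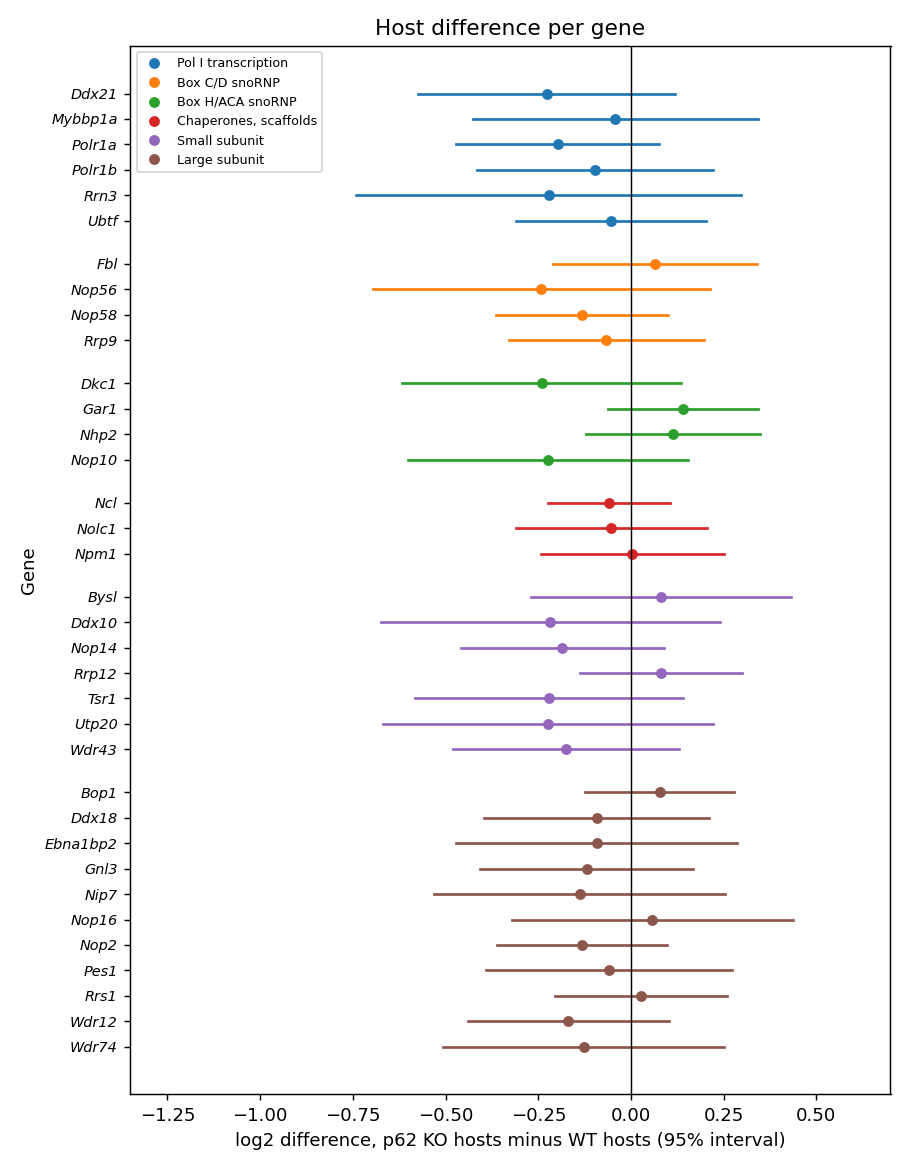
Log2 difference of tumours in p62 KO hosts minus tumours in WT hosts (horizontal axis) for the 35 genes, coloured by role. Points are limma estimates and lines their 95% intervals (n = 6 tumours each). All 35 intervals include 0, and the estimates run from -0.24 to 0.14.

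The factors of RNA polymerase I transcription all had differences below 0, between -0.23 and -0.04, and 0 of 6 passed. Rrn3, which makes the polymerase competent to initiate, ranged over 7.93, 9.15 and 9.36 (lowest, median and highest) in tumours of KO hosts and over 8.64, 9.10 and 9.48 in tumours of WT hosts. The medians of Rrn3 were close, and its mean difference of -0.22 (SE 0.24, limma adjusted p = 0.994) included 2 low KO tumours, host 2 at 7.93 and host 3 at 8.31. Without them Rrn3 differed by 0.15. Polr1a, the largest catalytic subunit, had 8.29, 8.84 and 9.05 in tumours of KO hosts and 8.85, 8.98 and 9.20 in tumours of WT hosts. Its difference was -0.20 (SE 0.13, unadjusted p = 0.142). A single KO tumour, host 2, lay apart at 8.29 from the other 5 of its group, which spanned 8.77 to 9.05.

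Polr1b, the other large catalytic subunit, had 6.61, 7.25 and 7.48 in tumours of KO hosts and 7.06, 7.15 and 7.58 in tumours of WT hosts. KO host 2 was again the lowest, but KO host 3, at 7.48, was the highest of its group. Ubtf, which opens ribosomal DNA for transcription, had 8.26, 8.77 and 8.93 in tumours of KO hosts and 8.60, 8.70 and 9.03 in tumours of WT hosts. Ddx21, a nucleolar helicase that couples this transcription with RNA processing, had 8.35, 8.86 and 9.30 in tumours of KO hosts and 8.75, 8.99 and 9.37 in tumours of WT hosts. The groups overlapped in both, with differences of -0.05 (SE 0.12) and -0.23 (SE 0.16). Mybbp1a, a nucleolar protein that binds transcription factors, differed by -0.04 (SE 0.18), with KO host 2 the lowest tumour of all at 7.74 and KO host 3 at 8.64.

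Box C/D snoRNP genes differed by -0.24 to 0.06, and 0 of 4 passed. Nop56, a core scaffold of these particles, had 9.40, 10.37 and 10.82 in tumours of KO hosts and 10.08, 10.55 and 10.75 in tumours of WT hosts. Its values were widely spread in KO hosts (SD 0.53) and narrower in WT hosts (SD 0.23), the lowest being KO host 2 and, among WT hosts, host 5. Its partner Nop58 showed a like contrast in spread, from 9.72 to 10.33 in tumours of KO hosts and from 10.06 to 10.23 in tumours of WT hosts, with a difference of -0.13 (SE 0.11). Fbl, the methyltransferase, had 9.34, 9.63 and 9.81 in tumours of KO hosts and 9.15, 9.50 and 9.93 in tumours of WT hosts, a difference of 0.06 (SE 0.13). A second Fbl probe set read lower, with means of 6.33 (KO hosts) and 6.26 (WT hosts). It gave a difference of 0.07 but another order of tumours. WT host 5 was the lowest WT tumour in the chosen probe set and WT host 4 in the second. RefSeq names 1 Fbl pseudogene. The annotation gives both probe sets to Fbl, which lies on chromosome 7. By identifier, the chosen one, the source of the values first given, lies between Wdr43 and Bysl of chromosome 17. The second lies between genes of chromosomes 6 and 8. Whether the chosen one reads Fbl, the pseudogene or both was not tested. Rrp9, which binds the U3 snoRNA needed for small-subunit processing, differed by -0.07 (SE 0.12), and WT host 3 stood apart at 6.98 from 6.47 to 6.58 in the other WT tumours.

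The box H/ACA genes had differences on both sides of 0. The pseudouridine synthase Dkc1 had 7.91, 8.61 and 8.97 in tumours of KO hosts and 8.38, 8.77 and 8.90 in tumours of WT hosts, a difference of -0.24 (SE 0.17, unadjusted p = 0.190). Gar1, which binds the synthase, had 8.52, 8.61 and 8.76 in tumours of KO hosts and 8.34, 8.43 and 8.83 in tumours of WT hosts, a difference of 0.14 (SE 0.09, unadjusted p = 0.160). KO hosts 2 and 3 were the lowest tumours in Dkc1, at 7.91 and 8.02, whereas in Gar1 they stood at 8.65 and 8.76. Nhp2, the RNA-binding core protein, had 7.33, 7.41 and 7.62 in tumours of KO hosts and 7.06, 7.28 and 7.74 in tumours of WT hosts, a difference of 0.11 (SE 0.11). Nop10, the small protein that joins the core to the synthase, differed by -0.22 (SE 0.18), and KO host 3 had its lowest value at 9.39. Their 4 differences, 2 above and 2 below 0, did not pass in either direction.

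The nucleolar chaperones Npm1 and Ncl stood apart from the other genes across tumours. Npm1, a histone chaperone that shuttles pre-ribosomes, had 11.13, 11.25 and 11.75 in tumours of KO hosts and 11.24, 11.35 and 11.56 in tumours of WT hosts, with means of 11.36 in both. Its highest tumours were KO host 2 at 11.75, KO host 3 at 11.59 and WT host 5 at 11.56, all of them tumours in which most other genes of the set were low. Ncl (nucleolin), which binds nascent ribosomal RNA, had 10.99, 11.10 and 11.30 in tumours of KO hosts and 11.11, 11.15 and 11.28 in tumours of WT hosts. Its highest tumours were KO host 2 and WT host 5, and its difference was -0.06 (SE 0.08). Nolc1, a scaffold that gathers snoRNPs, differed by -0.05 (SE 0.12), and split the narrow KO arrays, with KO host 2 the lowest tumour of all at 8.56 and KO host 3 the highest at 9.33.

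**Figure D2:**
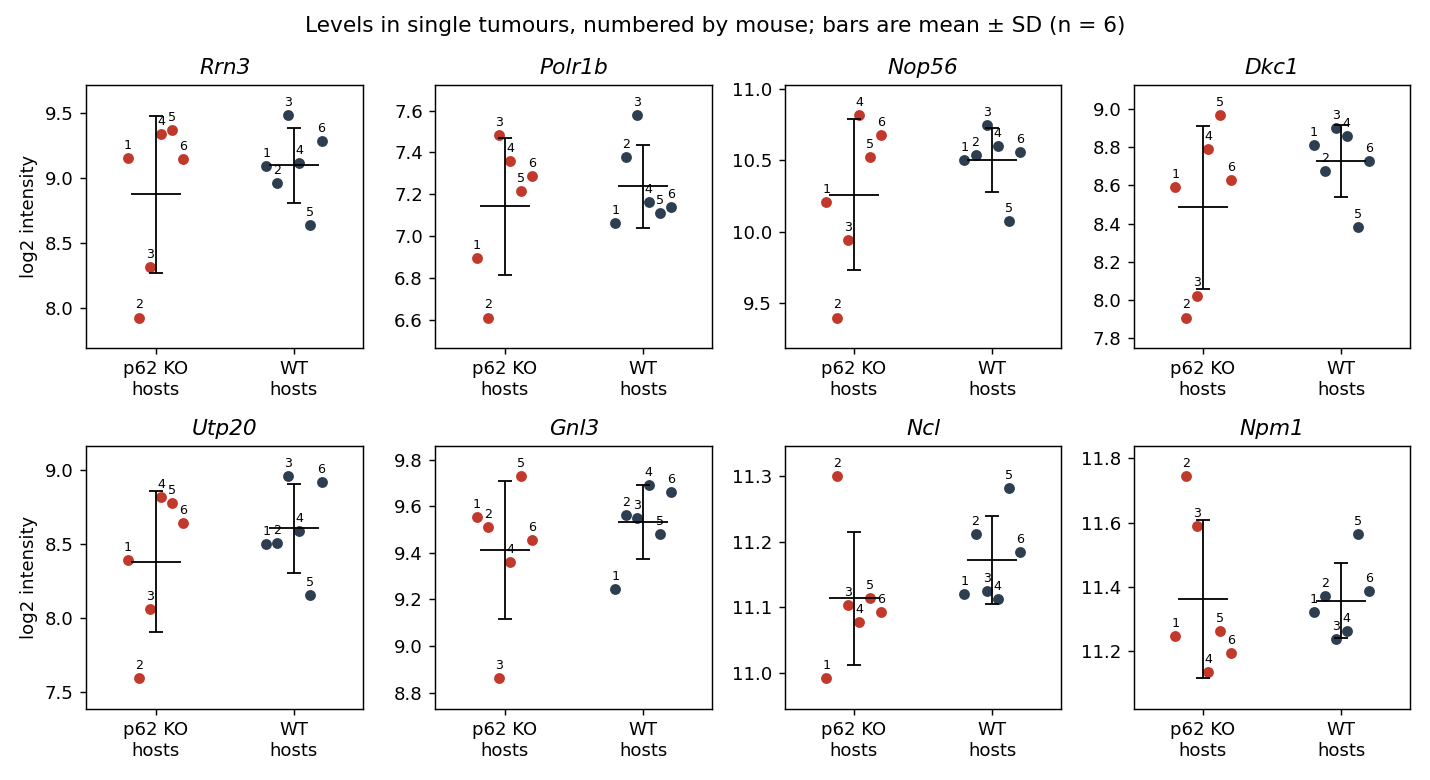
Log2 intensity of 8 genes in single tumours of p62 KO hosts (left, red) and WT hosts (right, dark), numbered by mouse, with mean ± SD (n = 6 each). KO hosts 2 and 3 are the lowest KO tumours in Rrn3, Nop56, Dkc1 and Utp20 and the highest in Npm1, and the groups overlap in every panel.

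Small-subunit factors had 5 of 7 differences below 0, between -0.22 and -0.17, and 2 at 0.08, and 0 of 7 passed. Utp20, a large scaffold of the small-subunit processome, had 7.59, 8.52 and 8.82 in tumours of KO hosts and 8.16, 8.55 and 8.96 in tumours of WT hosts, a difference of -0.22 (SE 0.21). Nop14, of the same complex, had 8.34, 8.78 and 9.06 in tumours of KO hosts and 8.68, 8.94 and 9.04 in tumours of WT hosts, a difference of -0.19 (SE 0.13, unadjusted p = 0.169). In both the lowest values of all belonged to KO hosts 2 and 3. Ddx10, Tsr1 and Wdr43, a helicase, a GTPase-like maturation factor and a processome scaffold, differed by -0.22, -0.22 and -0.17 with standard errors of 0.21, 0.17 and 0.14. Without KO hosts 2 and 3 these became 0.13, 0.04 and 0.01. The export factor Rrp12 had 6.51, 6.78 and 7.00 in tumours of KO hosts and 6.53, 6.68 and 6.81 in tumours of WT hosts. Bysl, needed for late maturation, had 6.68, 7.10 and 7.43 in tumours of KO hosts and 6.52, 7.01 and 7.37 in tumours of WT hosts. Each differed by 0.08, and without WT host 5, the lowest tumour of all in Bysl at 6.52, its difference was -0.01.

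Large-subunit factors had 8 of 11 differences below 0, from -0.17 to -0.06, and 3 above, from 0.03 to 0.08, and 0 of 11 passed. Bop1, Pes1 and Wdr12 form the PeBoW complex, which matures the large-subunit RNAs. Bop1 had 6.77, 6.79 and 7.11 in tumours of KO hosts and 6.63, 6.76 and 7.00 in tumours of WT hosts. Pes1 had 7.68, 8.17 and 8.65 in tumours of KO hosts and 7.82, 8.22 and 8.57 in tumours of WT hosts. Their differences were 0.08 (SE 0.09) and -0.06 (SE 0.15), and KO host 2 was the lowest tumour of all in Pes1 but within the range of the other KO tumours in Bop1. Wdr12 had 8.08, 8.50 and 8.92 in tumours of KO hosts and 8.49, 8.70 and 8.83 in tumours of WT hosts, a difference of -0.17 (SE 0.13, unadjusted p = 0.202). Its second probe set differed by -0.34 (SE 0.19, limma unadjusted p = 0.0996), with KO hosts 2 and 3 lowest at 7.66 and 7.60. By identifier, the second lies between Nop58 and Ncl of chromosome 1, where Wdr12 is. The chosen one lies outside that block, and whether it reads Wdr12 was not tested.

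Gnl3 (nucleostemin), a nucleolar GTPase of stem and cancer cells, had 8.86, 9.48 and 9.73 in tumours of KO hosts and 9.25, 9.56 and 9.69 in tumours of WT hosts. Here KO host 3 alone was low at 8.86, while KO host 2, at 9.51, was above the KO median. Ebna1bp2, a pre-ribosome assembly factor, also had its lowest value in KO host 3, at 8.58, with KO host 2 at 9.04. The remaining factors were the helicase Ddx18, the RNA methyltransferase Nop2 and the assembly factors Nip7, Nop16, Rrs1 and Wdr74. Their differences lay between -0.14 (Nip7) and 0.06 (Nop16), with standard errors of 0.11 to 0.18. Nop16 and Nip7 varied most among WT tumours of these 11, with SDs of 0.35 and 0.40, the lowest being WT host 5 and the highest WT host 3 in both.

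The second question was how the genes varied together from tumour to tumour. The 35 genes averaged 8.68, 8.35, 8.47, 8.87, 8.84 and 8.81 in KO hosts 1 to 6, and 8.70, 8.72, 8.99, 8.79, 8.55 and 8.82 in WT hosts 1 to 6. KO hosts 2 and 3 were the lowest tumours and WT host 5 the next, whereas WT host 3 was the highest. KO host 2 was the lowest of all 12 tumours in 17 genes and KO host 3 in 8, together 25 of 35. Over all probe sets these tumours were lowest in 12.6% and 16.9%. The mean over the genes in the upper part of the scale was also lowest in KO hosts 2 and 3 (7.83 and 7.77). The share of those genes that was lowest or highest in a given tumour is not given here. WT host 3 was the highest in 16 of 35 genes (45.7%), against 9.65% of all probe sets.

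Against the mean of KO hosts 1, 4, 5 and 6, KO host 2 was lower in 31 of 35 genes, with a median of -0.48. This compares with 41.0% of all probe sets and 72.9% of the 9969 genes in the upper part of the scale, whose median was -0.32. KO host 3 was lower in 24 of 35, with a median of -0.38, against 74.5% and -0.39 for those 9969 genes, so that its share was no higher than theirs. WT host 5 was lower than the mean of the other WT tumours in 33 of 35 genes (median -0.24), against 68.7% of the genes in the upper part of the scale (median -0.12). WT host 2, the fourth narrow array, had a mean of 8.72, within the range of the wider arrays.

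**Figure D3:**
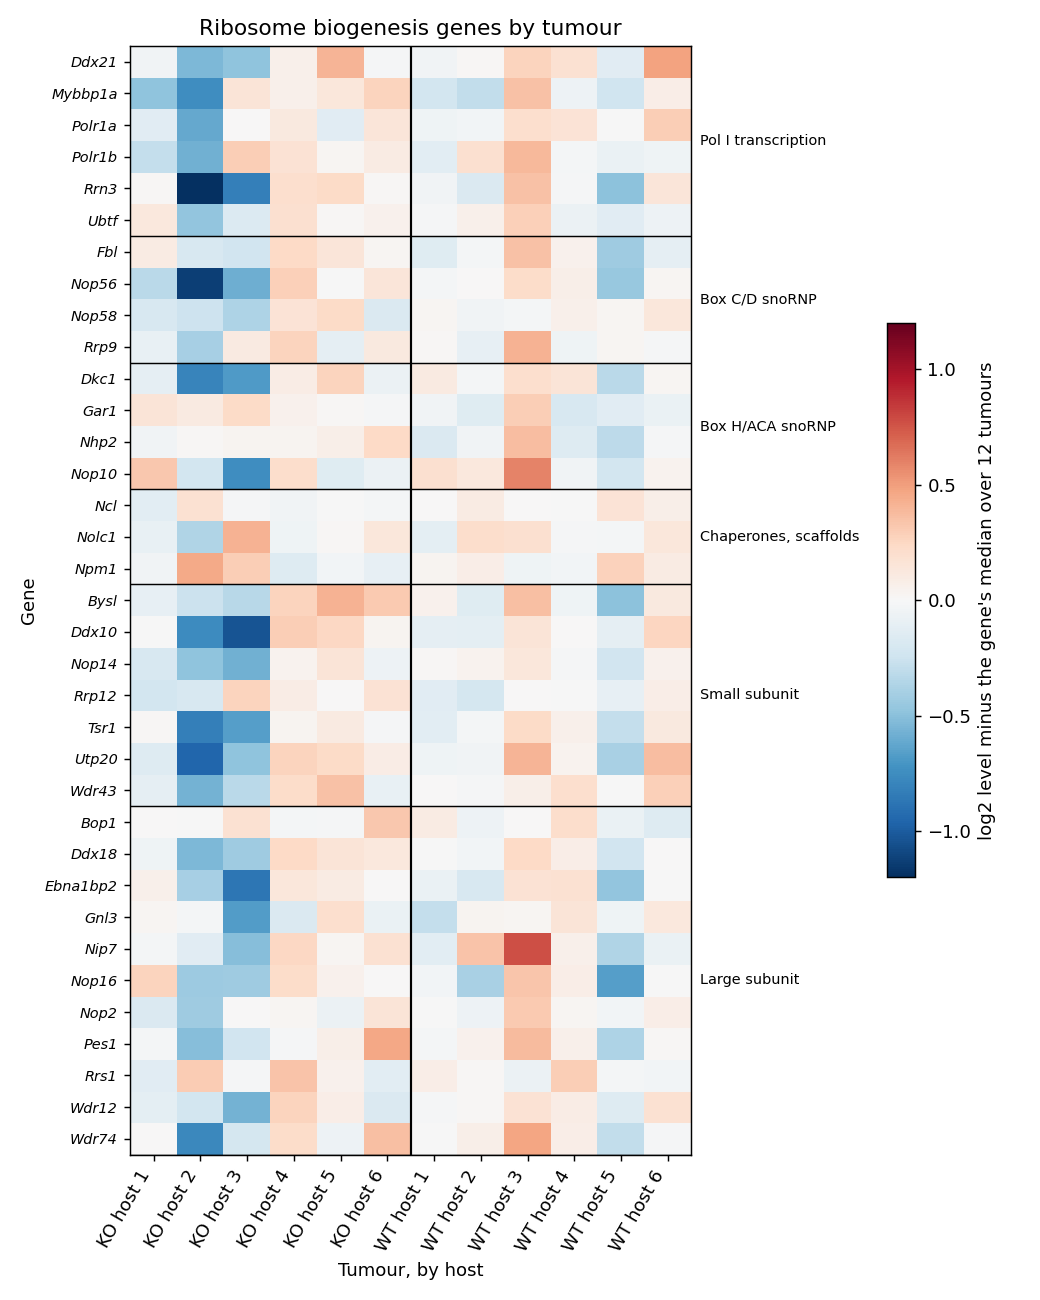
Log2 level of each of the 35 genes minus its own median over the 12 tumours (colour), with tumours of KO hosts left of the line and of WT hosts right of it, genes grouped by role. KO host 2 is blue in most rows and WT host 3 red, while Npm1 runs the other way and the genes of RNA polymerase I transcription are all higher in KO host 3 than in KO host 2.

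**Figure D4:**
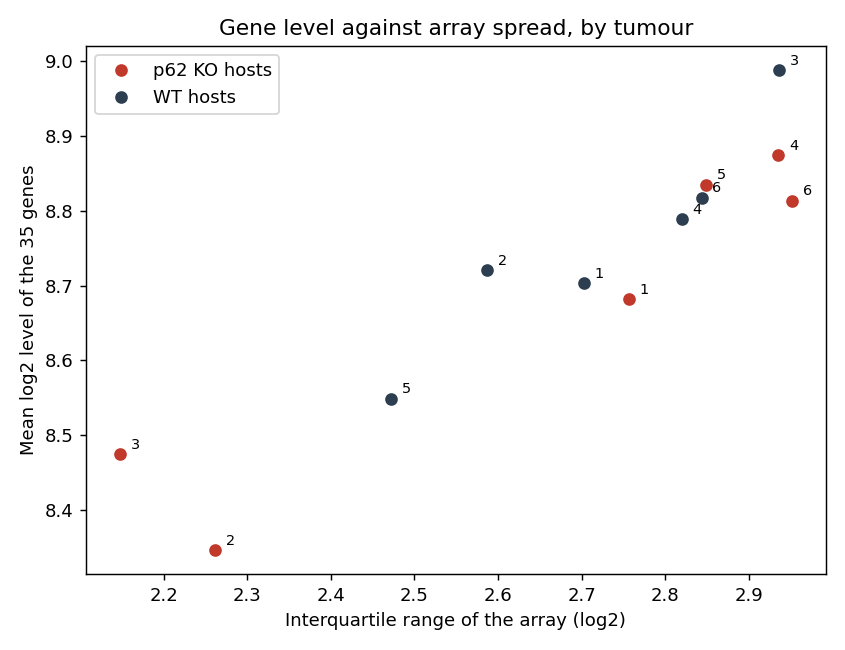
Mean log2 level of the 35 genes (vertical axis) against the interquartile range of each array in log2 units (horizontal axis), numbered by mouse, red for KO hosts and dark for WT hosts. The 3 lowest means, 8.35, 8.47 and 8.55, belong to the 3 narrowest arrays, and KO host 3 has a narrower array than KO host 2 but a higher mean.

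KO hosts 2 and 3 were also set side by side. In KO host 3, 22 of the 35 genes were higher than in KO host 2 with a median difference of 0.12, against 55.5% of all probe sets and a median of 0.04. By role these were all 6 genes of RNA polymerase I transcription (median 0.50), 6 of 11 large-subunit, 4 of 7 small-subunit, 2 of 4 box C/D and 3 of 4 box H/ACA genes, and 1 of 3 chaperones and scaffolds. A difference between roles was not tested. Mybbp1a (0.89), Polr1b (0.87), Nolc1 (0.77), Polr1a (0.62), Wdr74 (0.57) and Nop56 (0.54) were the genes furthest above. In the other direction Gnl3 was lower in KO host 3 by 0.65 and Nop10 by 0.52. The assembly factors Ebna1bp2, Nip7 and Wdr12 differed by -0.46, -0.38 and -0.35. The second Wdr12 probe set did not show this contrast, with KO host 2 at 7.66 and KO host 3 at 7.60. These are single tumours with no replicate, and the genes were picked by their size. After quantile normalization, which gives every array the same distribution, KO host 2 was the lowest tumour in 17 of 35 genes, whereas KO host 3 was the lowest in 4 and the highest in 8. With the array spread regressed out, KO host 2 was the lowest in 12, KO host 6 in 9 and KO host 3 in 2. After quantile normalization the set averaged 8.50 in KO host 2 and 8.72 in KO host 3, and WT tumours lay between 8.62 and 8.87.

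Pairs of the genes varied together across tumours after the host group means had been subtracted. Over the 595 pairs the median Pearson correlation was 0.48 (12 tumours), with quartiles of 0.06 and 0.74, against 0.01 over all pairs of genes on the array and 0.25 over pairs of the 9969 genes in the upper part of the scale. All pairs share the same 12 arrays and their spread. In the 8 tumours without the narrow arrays the median was 0.38, against 0.06 for pairs in the upper part of the scale. It was 0.21 after quantile normalization and 0.13 in a fit that took the spread of the arrays as a covariate, against 0.05 and 0.00175 for the upper part. By role, the median over pairs was 0.84 for small-subunit factors, 0.65 for RNA polymerase I transcription, 0.56 for box C/D, 0.42 for large-subunit and 0.39 for box H/ACA genes, and -0.16 for the 3 chaperones and scaffolds. In the 8 tumours with wider arrays these medians were 0.61, 0.55, 0.41, 0.26 and 0.28, and 0.24 for the chaperones and scaffolds, whose sign thus turned.

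Single genes followed the mean of the other 34 to very different degrees. Ddx18 (0.97), Utp20 (0.97), Rrn3 (0.96), Tsr1 (0.94) and Nop56 (0.94) followed it most closely, as correlations over 12 tumours with group means subtracted. In the 8 tumours with wider arrays these were 0.91, 0.87, 0.87, 0.77 and 0.77. The second Ddx18 probe set had another order of tumours, with KO host 3 at 9.54, against 9.21 in the chosen one. Its SD over KO tumours was 0.15, against 0.32. By identifier, the second lies just past Ncl in the block of chromosome 1, where Ddx18 is. The chosen one lies outside that block, past Nop2 of chromosome 6. Whether the chosen probe set reads Ddx18 at all, or Ddx18 alone, was not tested. Bop1 (0.04), Gar1 (0.08) and Rrs1 (-0.18) followed the mean of the others least, and Ncl (-0.66) and Npm1 (-0.93) ran against it. Over the 8 tumours Bop1 was at -0.20, Gar1 at 0.44 and Rrs1 at 0.03. Without the narrow arrays Npm1 was still at -0.53, whereas Ncl turned to 0.43. Polr1b was at 0.53 over 12 tumours and at 0.96 over the 8. Dkc1 was at 0.91 over 12 tumours and at 0.48 over the 8.

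**Figure D5:**
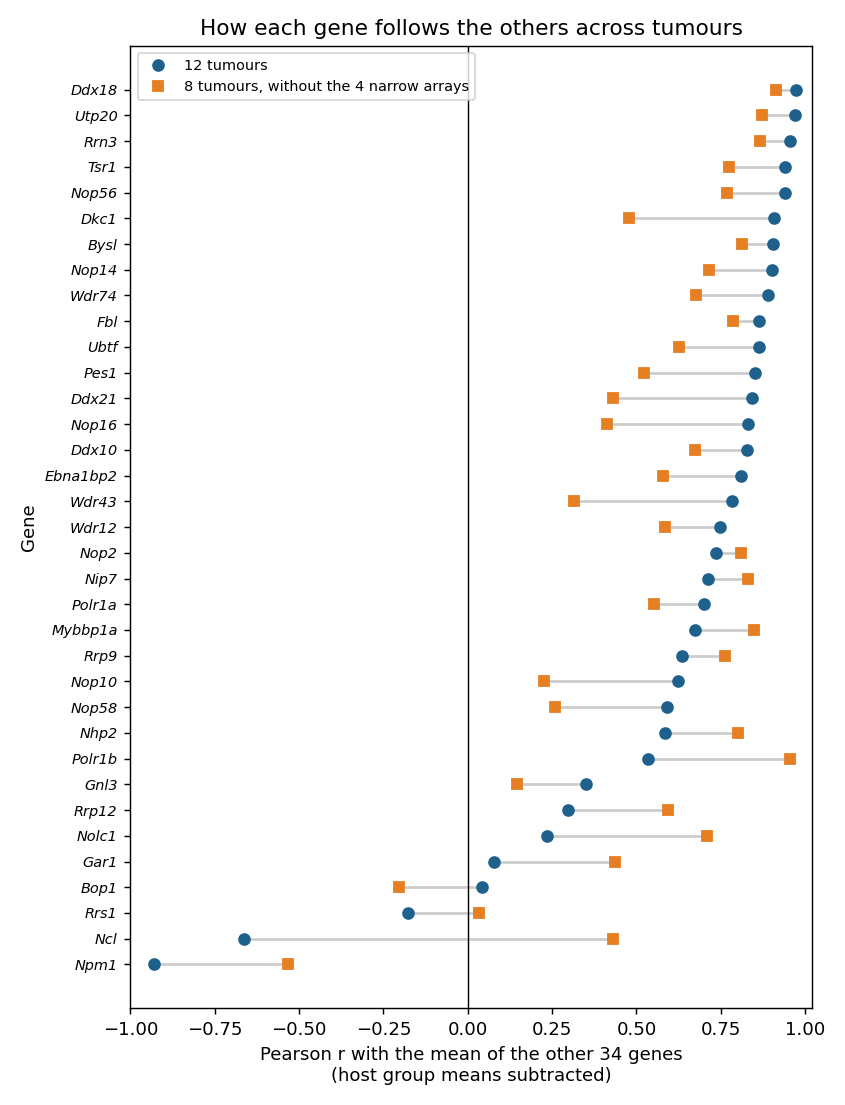
Pearson correlation of each gene with the mean of the other 34 (horizontal axis, group means subtracted) over 12 tumours (circles) and over the 8 tumours without the 4 narrow arrays (squares). Of the 35 genes, 32 lie above 0 over 12 tumours, Npm1 lies lowest in both, and Ncl changes side.

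Spread differed between the groups as it did across the array. In 30 of 35 genes the SD was larger among tumours of KO hosts than among those of WT hosts, with medians of 0.30 and 0.18, against 80.4% of all probe sets with medians of 0.27 and 0.17. The share in the set therefore stood near the background.

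Introns of these genes host small nucleolar RNAs, the guides that the snoRNPs carry. Of 56 probe sets for snoRNA genes, 4 lay within the span of a gene of the set in RefSeq, whose table gives no strand. Snora75 and Snord82 lie in Ncl, Snord53 in Wdr43 and Snord57 in Nop56. Their differences were -0.29 (SE 0.22), -0.36 (SE 0.17), -0.39 (SE 0.28) and -0.06 (SE 0.14), and 0 of 4 passed (adjusted p = 0.994 each). Snord53 had 6.95, 8.30 and 8.69 in tumours of KO hosts and 7.86, 8.43 and 8.75 in tumours of WT hosts, with KO host 3 the lowest tumour of all, as it also was in Snora75 and Snord82. Both snoRNAs within Ncl were thus lowest in KO host 3, at 6.33 and 8.12, where Ncl itself stood near its median at 11.10. Probe sets for such short RNAs can also read the intron of the host transcript.

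A wider list of other ribosome biogenesis genes, of which 102 of 108 were measured, was lowest in KO host 3 and next lowest in KO host 2, the reverse of their order in the set. It averaged 8.19, 7.85, 7.80, 8.33, 8.34 and 8.30 in KO hosts 1 to 6 and 8.04 to 8.43 in WT hosts, with WT host 5 the lowest and WT host 3 the highest of its group. Between hosts 23 differences were above and 79 below 0, against 6116 of 9969 below for genes in the upper part of the scale. The medians were -0.08 and -0.04, and 0 of the 102 passed. Those with the smallest unadjusted p were the RNA acetyltransferase Nat10 at -0.23 (SE 0.12), the assembly factor Nop53 at 0.21 (SE 0.12), the snoRNP assembly factor Naf1 at -0.29 (SE 0.17) and Noc3l at -0.39 (SE 0.23). Nop9, Nob1 and Pno1, which act on pre-ribosomal RNA of the small subunit, differed by 0.10, -0.06 and -0.11.

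Myc, the main transcriptional driver of these genes, stood at 10.75 ± 0.23 with a KO host and 10.55 ± 0.24 with a WT host (SD, n = 6 each). Its difference of 0.20 (SE 0.13, limma unadjusted p = 0.145) did not pass, and a relation of Myc to the levels of the set was not tested. Its partner Max differed by -0.18 (SE 0.17), Mycn by 0.17 (SE 0.09) and the Max-binding repressor Mga by -0.34 (SE 0.15). Of the 10 genes of this list 6 were above and 4 below 0, and 0 passed. In the cell cycle list 13 of 19 were below 0 (median -0.06) and 0 passed, among them Mki67 at -0.07, Top2a at -0.11, Ccnb2 at -0.06 and Mad2l1 at -0.24. Its mean was lowest in KO host 3 (8.66), KO host 2 (8.84) and WT host 5 (8.85), the tumours in which the set was low, and highest in WT host 3 (9.42). Target genes of p53, which responds when ribosome assembly fails, differed by a median of -0.06, with 3 of 9 above 0 and 0 passing. Mdm2 differed by -0.06 (SE 0.17), Bbc3 by 0.06 (SE 0.09) and Trp53inp1 by -0.25 (SE 0.11).

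Markers of other cell types moved with the low tumours in part. The 10 epithelial markers, of which 3 lay below the lower quartile of the table, averaged 5.72 to 6.22 in tumours of KO hosts and 5.67 to 5.97 in tumours of WT hosts. They were highest in KO hosts 3 and 2 (6.22 and 6.02) and, among WT tumours, in hosts 2 and 5 (5.97 and 5.95), and 9 of 10 differed above 0 with 0 passing. The 10 neutrophil markers averaged 5.67 to 6.58 in tumours of KO hosts and 5.57 to 6.03 in tumours of WT hosts, all 10 above 0 with 0 passing, and were highest in KO hosts 2 (6.58) and 3 (6.50). They averaged 6.27 and 6.31 in KO hosts 1 and 6, but 5.67 and 5.71 in KO hosts 4 and 5. Over all probe sets 16136 of 28192 differences were above 0. S100a9 differed by 0.58 (SE 0.18). B cell, adipocyte and skeletal muscle markers were also highest of all 12 tumours in KO hosts 2 and 3, at 5.59 and 5.63 (B cell), 6.51 and 6.45 (adipocyte) and 5.99 and 6.14 (skeletal muscle). In WT tumours they spanned 5.01 to 5.34, 5.75 to 6.27 and 5.65 to 5.85. T and NK cell markers were instead highest in WT host 1 (5.97), with KO hosts 2 and 3 at 5.76 and 5.68. Endothelial markers stood at 7.38 in KO host 2 and were lowest of the KO tumours in KO host 3 (6.97). Array lower quartiles were 5.27 in KO host 2 and 5.36 in KO host 3, against 4.85 to 4.97 in KO hosts 1, 4, 5 and 6. Against the mean of those 4 tumours, all probe sets had medians of 0.11 in KO host 2 and 0.15 in KO host 3. Only 41.0% and 40.7% of all probe sets lay below 0 in that contrast. Fibroblast markers averaged 9.11 to 9.84 in tumours of KO hosts and 9.44 to 9.78 in tumours of WT hosts. Of these markers 3 of 10 were above 0 with 0 passing, and their mean was lowest in KO host 3 (9.11). Macrophage markers averaged 8.70 to 9.36 in tumours of KO hosts and 8.64 to 9.39 in tumours of WT hosts, with 8 of 10 above 0 and 0 passing. KO host 3 was the lowest KO tumour in that list and WT host 2 the lowest WT tumour. The part of these cells in the levels of the ribosome biogenesis genes was not tested.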

How the data were processed

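The authors deposited 1 log2 intensity for each probe set and tumour, computed with RMA (robust multi-array average) per the submitters' processing notes, which give no version. Of 34760 rows, the 6568 with the lowest identifiers carry no gene and were left out as controls, and the other 28192 were tested. Of these, 21640 have 1 gene symbol. The host groups, 6 tumours each, were set against each other by limma's two-sided test (version 3.58.1, R version 4.3.3) without covariates, p-values were adjusted by Benjamini-Hochberg across these 28192 probe sets, and Sqstm1 was also tested by exact permutation over 924 assignments. The genes and lists were chosen with earlier results of these data known. Of 292 list genes, 276 were measured. Genes named with values follow a rule: 15 preset members, the 5 members with the smallest unadjusted p in each direction, and 3 preset and up to 4 such genes of each other list. Members named elsewhere, and the genes in the upper part of the scale as a background, were chosen after their values were seen. Alternatives covered scaling, filters, array weights, array spread, mouse number and left-out tumours. Precision is limited by the number of arrays. The table of genes gave no strand, so snoRNA genes were placed by position alone. Correlations between arrays lay between 0.935 and 0.991. Each tumour came from its own mouse. Plots used matplotlib 3.10.9.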

Additional observations from a re-analysis of the deposited data

Results flagged for a closer look

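A single tumour lay well outside its group's range in 5 of 74 sets of 6 values, where about 1 in 20 would do so by chance. In WT tumours, host 3 was high in Rrp9 at 6.98 (the others 6.47 to 6.58), in Gar1 at 8.83 (8.34 to 8.49) and in Nop2 at 8.19 (7.82 to 7.96). WT host 5 was low in Nop56 at 10.08 (10.50 to 10.75). In KO tumours, host 2 was low in Polr1a at 8.29 (8.77 to 9.05).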

How the results depend on the processing

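Under all 24 alternatives 0 of 35 genes passed, and the smallest adjusted p in any was 0.65 (limma, without KO hosts 2 and 3). The mean difference over the set was -0.09, between -0.13 and -0.03 with each tumour left out (closest to 0 without KO host 2), and between -0.13 and -0.02 under the other settings, except at 0.02 with array weights, which gave KO hosts 3 and 2 weights of 0.138 and 0.195, and at 0.04 without KO hosts 2 and 3. With a common array median, the differences that changed sign were Npm1 -0.031 and Rrs1 -0.0077. With quantile normalization, the differences that changed sign were Npm1 -0.016, Nolc1 0.016, Mybbp1a 0.018 and Ubtf 0.020. With array weights, the differences that changed sign were Npm1 -0.10, Pes1 0.066, Wdr74 0.039, Rrp9 0.0042, Rrs1 -0.027, Utp20 0.011, Ddx18 0.069, Ddx10 0.095, Mybbp1a 0.064, Rrn3 0.079, Ubtf 0.073, Gnl3 0.0077, Nip7 0.025 and Ebna1bp2 0.070. With the interquartile range as a covariate, the differences that changed sign were Npm1 -0.045, Pes1 0.0038 and Mybbp1a 0.0040. Without KO hosts 2 and 3, the differences that changed sign were Npm1 -0.15, Nop56 0.053, Dkc1 0.019, Pes1 0.11, Wdr43 0.0053, Wdr74 0.081, Rrs1 -0.010, Utp20 0.052, Ddx18 0.11, Ddx10 0.13, Mybbp1a 0.054, Rrn3 0.15, Ubtf 0.084, Nip7 0.0059, Ebna1bp2 0.14 and Tsr1 0.037. Without these and WT hosts 2 and 5, the differences that changed sign were Npm1 -0.094, Pes1 0.017, Rrs1 -0.033, Ddx18 0.036, Ddx10 0.067, Rrn3 0.0068, Ubtf 0.060 and Ebna1bp2 0.0094. With each tumour left out in turn, 13 differences changed sign at least once, with ranges of Bysl -0.012 to 0.16, Ebna1bp2 -0.17 to 0.048, Fbl -0.011 to 0.14, Mybbp1a -0.12 to 0.085, Nolc1 -0.13 to 0.020, Nop16 -0.051 to 0.15, Npm1 -0.073 to 0.049, Pes1 -0.16 to 0.035, Polr1b -0.16 to 0.010, Rrp9 -0.12 to 0.0097, Rrs1 -0.028 to 0.077, Ubtf -0.10 to 0.033 and Wdr74 -0.21 to 0.013. The median pairwise correlation of 0.48 became 0.21 with quantile normalization and 0.13 with the interquartile range as a covariate. Sqstm1, at -0.16, turned to 0.05 without KO hosts 2 and 3, a setting chosen for it after its values were seen (exact permutation p = 0.42 and 0.705). With the mouse number as a replicate block the mean difference stayed at -0.09 and 0 genes passed. Same-numbered tumours had correlations of deviations from -0.55 to 0.37, and no KO tumour matched its own number best. Array spread was not removed from these correlations, so they cannot exclude a pairing by number. Why signs changed was not tested.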

Other observations

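Other cell type lists were measured in the same tumours, and 0 of their genes passed limma. As background, 16136 of 28192 probe sets had differences above 0. T and NK cell markers had 5 of 8 differences above 0 (Cd3e -0.14, Cd3g 0.00, Cd4 0.04), B cell markers 5 of 5 (Cd79a 0.63), endothelial markers 6 of 10 (Pecam1 -0.04, Cdh5 0.17), adipocyte markers 6 of 7 (Lep 0.41), skeletal muscle markers 8 of 10 (Des 0.21) and tissue handling genes 10 of 11 (Dusp1 0.56, Nr4a1 0.45). Gland secretion genes had 5 of 10, and all 10 lay below the lower quartile of the table.

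Other lists were measured for co-variation in the same way. With host group means subtracted, the median pairwise correlation over 12 tumours was 0.69 for 19 cell cycle genes, 0.61 for the 102 other ribosome biogenesis genes, 0.66 for 10 epithelial markers and 0.49 for 10 macrophage markers. In the 8 tumours with wider arrays these were 0.44, 0.39, 0.11 and 0.33, while T and NK cell markers stood at 0.69 and neutrophil markers at 0.53. Among Myc and its network the medians were -0.06 over 12 tumours and 0.02 over 8.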
